A study of Homo sapiens with 18 samples.

Results

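The comparison described here is that of HK-2 cells given transforming growth factor beta 1 (TGF-beta1) alone with untreated HK-2 cells, both after 48 h. It takes the 3 arrays titled TGF-beta_48hrs and the 3 arrays titled Control_48hrs, 6 of the 18 arrays of the series, and covers all 12468 genes that could be tested. HK-2 is a line of human kidney proximal tubule epithelium, immortalised with papillomavirus genes, and each array held RNA of a separate flask. The TGF-beta1 flasks received 2 ng/mL of the growth factor for 48 h, and the control flasks received no supplement for the same time. Both groups shared cells of passages 18 to 30, grown in 17.5 mM glucose. They also shared a switch to 5 mM glucose for 48 h before treatment, and a night without serum before treatment. The other 12 arrays, in 4 further groups with C-peptide (5 nM), both agents or untreated cells at 18 h, entered the fit as a source of the spread between flasks, and the 6 of them from the groups with C-peptide at 48 h served as a second set for the same contrast. The labels name a single line and do not say whether flasks of a group were grown at separate times, so the p-values measure the spread between flasks, which may be technical. The description fields of the second and the third TGF-beta1 array name TGF-b2 and TGF-b3 in place of TGF-b1, while the treatment protocol names TGF-b1 alone, and the groups here follow the titles and the protocol.

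TGF-beta1 is a secreted growth factor that signals through a pair of receptor kinases to SMAD proteins, which enter the nucleus and bind DNA together with other factors. In kidney epithelium it is known for driving fibrosis and for turning epithelial cells toward a mesenchymal state, with loss of cell junctions and production of extracellular matrix. It also restrains its own signal through induced inhibitors such as SMAD7.

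The labelled cell type was checked against markers. Of 15 proximal tubule markers, 10 were detected on none of the 18 arrays, among them LRP2, CUBN, AQP1, SLC34A1 and HNF4A, so most defining genes of the labelled segment were at background in both groups. The summed intensity of the 5 tested markers was 998 to 1080 on the TGF-beta1 arrays and 2550 to 2720 on the control arrays. All 6 general epithelial markers were tested, and their sum was 11000 to 11700 with TGF-beta1 and 18600 to 19600 in control. They did not move as 1, since 3 were called lower, 1 was called higher and 2 were not called. With the mean of all kept probes 2 were higher. Most markers of leukocytes and endothelium were undetected. PTPRC, CD3E, CD14 and LYZ of leukocytes and CDH5, KDR, TEK, VWF and CLDN5 of endothelium passed detection on no array of either group, and of 9 fibroblast markers COL1A2, COL3A1, THY1 and FAP did not. The sum of the 5 fibroblast markers that were tested was 2640 to 2780 with TGF-beta1 and 1970 to 2120 in control. Of 7 distal nephron markers SCNN1A and ATP6V1B1, a proton pump subunit, were detected in control and on no TGF-beta1 array, with a sum of 53.1 to 59.9 with TGF-beta1 and 291 to 314 in control, and the other 5 were detected on no array. The part of these markers in the results was not tested. In cell cultures measured in bulk, fewer cells of a type and less RNA per cell cannot be told apart.

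The mean signal of an array before normalization was 302.7 to 306.1 with TGF-beta1 and 307.3 to 343.7 in control. An array detected 14981 to 15185 of 48803 probes with TGF-beta1 and 14985 to 15818 in control, at a detection p under 0.01. Pearson correlations across genes were 0.9943 to 0.9965 between arrays of the same group and 0.9542 to 0.9607 between arrays of different groups. The first principal component held 87.4% of the variance and put the 3 TGF-beta1 arrays on one side (29.41 to 33.74) and the 3 control arrays on the other (-32.49 to -30.39). All levels below are log2 intensity after background correction and quantile normalization, and all changes are log2 fold changes, TGF-beta1 minus control, with their standard error (SE) from a linear model over the 18 arrays. A gene is called when its Benjamini-Hochberg adjusted p was under 0.05. For every gene given below by its value on each array, all 3 TGF-beta1 values lay on one side of all 3 control values.

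TGF-beta1 changed a large share of the genes that HK-2 cells expressed, most of them by less than 2-fold. Of 12468 genes, 5619 were called (45.1%), 2723 higher (21.8%) and 2896 lower (23.2%) with TGF-beta1. At least 2-fold changes were seen in 367 called genes that were higher (2.94%) and 477 that were lower (3.83%), 844 in all (6.77%). At least 4-fold changes were seen in 66 higher and 76 lower genes, at least 8-fold changes in 23 and 17, and at least 16-fold changes in 5 and 4. At the other end of the scale, 446 higher and 434 lower genes were called with changes under 1.25-fold, and the smallest called change was 1.108-fold. The median fold of called genes was 1.398 for those that were higher and 1.446 for those that were lower. The median absolute change over all genes was 0.249, against a median SE of 0.115. The 2 groups of arrays did not overlap for 7290 genes (58.5%), 3518 with TGF-beta1 above (28.2%) and 3772 with TGF-beta1 below (30.3%). Only 1 gene with a change of at least 2-fold was not called. It was CSF2, a growth factor of granulocytes and macrophages, at 7.56, 6.83 and 6.95 on the TGF-beta1 arrays, against 5.57, 6.01 and 5.41 on the control arrays, a difference of 1.45 (SE 0.65, adjusted p = 0.0776) in the fit over all groups, although its 2 groups did not overlap.

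The share of called genes depended little on the level of the gene. Of 4 equal classes of mean level, it was 39.3% in the lowest, 45.5% and 47.2% in the next and 48.3% in the highest. Changes of at least 2-fold leaned toward dim genes among those that were higher, with 126 in the lowest class and 66 in the highest. Among genes that were lower they were most frequent in the second class, with 145, against 119 in the lowest and 94 in the highest. The genes changed at least 2-fold differed in span along the genome, with a median of 28.9 kb for the 311 higher genes that had a RefSeq entry with a length, 38.3 kb for 402 lower genes and 30.3 kb for 10439 of all genes tested. No test was made of these spans.

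**Figure D1:**
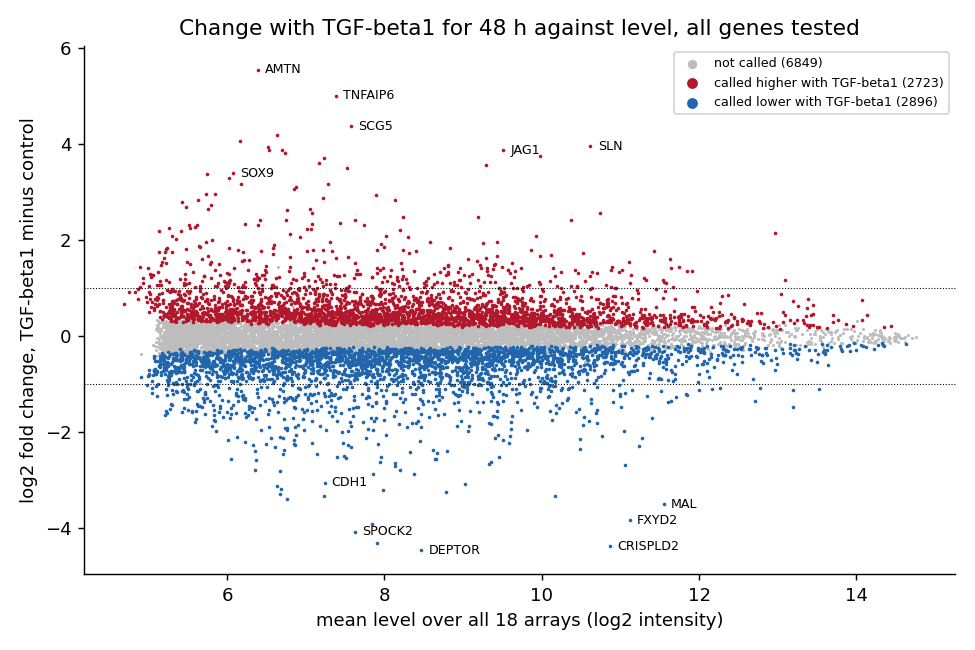
Log2 fold change (TGF-beta1 minus control, vertical axis) against the mean log2 intensity over all 18 arrays (horizontal axis), 1 point per gene, red for genes called higher with TGF-beta1, blue for genes called lower and grey for genes not called; dotted lines mark 2-fold changes. The 2723 higher and 2896 lower genes spread over the whole range of levels, and AMTN and DEPTOR lie at the extremes of the genes with an established symbol.

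Genes with large rises came from unrelated families. AMTN encodes amelotin, a secreted protein of the enamel organ. Its level was 9.94, 9.68 and 10.17 on the TGF-beta1 arrays, against 4.36, 4.35 and 4.43 on the control arrays. All 3 control values were below detection, so AMTN was at least 23.7-fold higher (adjusted p = 4.69e-14). TNFAIP6, which encodes a hyaluronan-binding protein, was at 10.51, 10.18 and 10.47 on the TGF-beta1 arrays, against 5.42, 5.23 and 5.48 on the control arrays, where 2 of 3 arrays detected it. It rose by 5.01 (SE 0.40, adjusted p = 3.3e-09). Every TGF-beta1 array stood above every control array for both genes.

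SLN encodes sarcolipin, an inhibitor of the calcium pump of the sarcoplasmic reticulum. It was at 13.01, 12.97 and 12.95 on the TGF-beta1 arrays, against 8.90, 9.25 and 8.92 on the control arrays. It rose by 3.95 (SE 0.22) with no overlap, from a control level that was already well above background. SLCO2A1, a carrier that takes up prostaglandins, rose by 3.76 (SE 0.37), and HTRA1, a secreted serine protease, rose by 3.56 (SE 0.22). SUCNR1, the receptor for succinate, was at 9.02, 9.06 and 8.98 on the TGF-beta1 arrays, against 5.19, 5.45 and 4.97 on the control arrays, where no array detected it. It was at least 12.6-fold higher. MYL7, an atrial myosin light chain, was at least 5.62-fold higher.

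AMTN, TNFAIP6 and IL11 are shown with the 250 bases before their RefSeq start because these 3 strongly raised genes hold short motifs that TGF-beta-activated factors are known to bind, and ELF3 is shown as a strongly lowered gene with an E-box. IL11 encodes interleukin 11, a cytokine of the interleukin 6 family, and ELF3 an ETS factor of epithelia. The windows are from GRCh38.p14, read 5′ to 3′ toward the gene, and were chosen after the values were seen among genes with a single window. Capitals mark CAGACA (the CAGA box of SMAD proteins), TGACTCA (the AP-1 site) and CACCTG (the E-box of SNAI and ZEB repressors), each searched on both strands. No 2 matches overlapped.
AMTN, chr4:70518319-70518568, forward strand: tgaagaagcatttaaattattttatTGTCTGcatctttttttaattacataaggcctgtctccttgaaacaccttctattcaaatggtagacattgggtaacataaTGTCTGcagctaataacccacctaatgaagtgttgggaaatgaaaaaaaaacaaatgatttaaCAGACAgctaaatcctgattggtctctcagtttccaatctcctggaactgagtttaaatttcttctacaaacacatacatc
TNFAIP6, chr2:151357342-151357591, forward strand: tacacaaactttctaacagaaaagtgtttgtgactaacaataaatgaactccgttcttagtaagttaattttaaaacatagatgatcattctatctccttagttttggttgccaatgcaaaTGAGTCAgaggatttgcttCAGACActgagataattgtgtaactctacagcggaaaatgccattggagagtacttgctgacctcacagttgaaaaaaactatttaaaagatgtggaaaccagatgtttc
IL11, chr19:55370464-55370713, reverse strand: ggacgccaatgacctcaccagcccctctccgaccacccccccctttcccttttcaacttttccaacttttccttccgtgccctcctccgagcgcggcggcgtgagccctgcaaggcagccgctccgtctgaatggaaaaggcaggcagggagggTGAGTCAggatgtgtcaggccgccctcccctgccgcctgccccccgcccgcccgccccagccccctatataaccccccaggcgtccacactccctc
ELF3, chr1:202010337-202010586, forward strand: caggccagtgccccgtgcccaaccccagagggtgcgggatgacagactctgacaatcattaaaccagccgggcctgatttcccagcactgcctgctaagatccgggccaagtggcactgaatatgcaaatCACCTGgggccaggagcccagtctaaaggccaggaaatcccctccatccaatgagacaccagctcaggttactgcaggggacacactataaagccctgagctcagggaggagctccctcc
The AMTN window holds 3 matches of CAGACA, which start 225, 144 and 81 bases before the start of the gene. The motif is found in 13.6% of all 35116 windows in the table. AMTN was chosen for its matches, so their number says nothing about other genes. The TNFAIP6 window holds a match of TGACTCA, 129 bases before the start, and 1 of CAGACA, 110 bases before it. IL11 has 1 match of TGACTCA, 96 bases before the start, a motif found in 4.2% of windows. ELF3 has 1 match of CACCTG, 120 bases before the start, a motif found in 17.5%. A match of letters is a description and no sign that a factor binds there. Of the genes changed at least 4-fold, 45 of 66 higher and 48 of 76 lower ones had a window. CAGACA was found in 7 of the higher (15.6%) and 6 of the lower (12.5%), TGACTCA in 4 (8.89%) and 2 (4.17%), and CACCTG in 9 (20%) and 14 (29.2%). These shares were not tested, and they leave out the genes without a window. The shares over all 35116 windows above are not limited to tested genes, so they are no like background for these.

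Among genes with an established symbol, the largest falls were led by DEPTOR. DEPTOR, an inhibitor of the kinase mTOR, was at 5.65, 5.89 and 5.30 on the TGF-beta1 arrays, against 10.11, 9.97 and 10.12 on the control arrays. It fell by 4.45 (SE 0.24, adjusted p = 9.02e-12), on a gene that 2 of 3 TGF-beta1 arrays still detected. CRISPLD2, a secreted protein, was at 8.25, 8.14 and 8.41 on the TGF-beta1 arrays, against 12.77, 12.33 and 12.82 on the control arrays, and fell by 4.37 (SE 0.34). FXYD2, which modulates the sodium pump as its gamma subunit, was at 8.58, 8.46 and 8.25 on the TGF-beta1 arrays, against 12.21, 12.39 and 12.19 on the control arrays, and fell by 3.83 (SE 0.17). For all 3 genes the lowest control array was more than 3 units above the highest TGF-beta1 array.

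Several genes that control cells expressed were detected on no TGF-beta1 array. SPOCK2, a secreted proteoglycan, was at least 13.5-fold lower (adjusted p = 9.04e-07), and LCN2, a carrier of iron-binding siderophores that marks tubular injury, was at least 10.5-fold lower (adjusted p = 0.000117). The beta-defensin DEFB1, an antimicrobial peptide, was at least 6.59-fold lower. SCNN1A, the alpha subunit of the epithelial sodium channel, was at least 5.42-fold lower, and BCO1, which cleaves beta-carotene to retinal, was at least 5.44-fold lower. Other genes fell strongly and were still detected on at least 1 TGF-beta1 array. MAL, a protein of apical membrane traffic, was at 9.58, 9.29 and 9.22 on the TGF-beta1 arrays, against 12.86, 12.85 and 12.85 on the control arrays, and fell by 3.49 (SE 0.41). PLAAT4, a phospholipase and acyltransferase, was at 7.88, 7.95 and 7.91 on the TGF-beta1 arrays, against 11.23, 11.13 and 11.33 on the control arrays, and fell by 3.32 (SE 0.11). CDH1, the epithelial cadherin, was at 5.69, 5.35 and 5.24 on the TGF-beta1 arrays, against 8.61, 8.24 and 8.59 on the control arrays, and fell by 3.05 (SE 0.18); 1 of 3 TGF-beta1 arrays still detected it. In none of these genes did the 2 groups of arrays overlap.

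**Figure D2:**
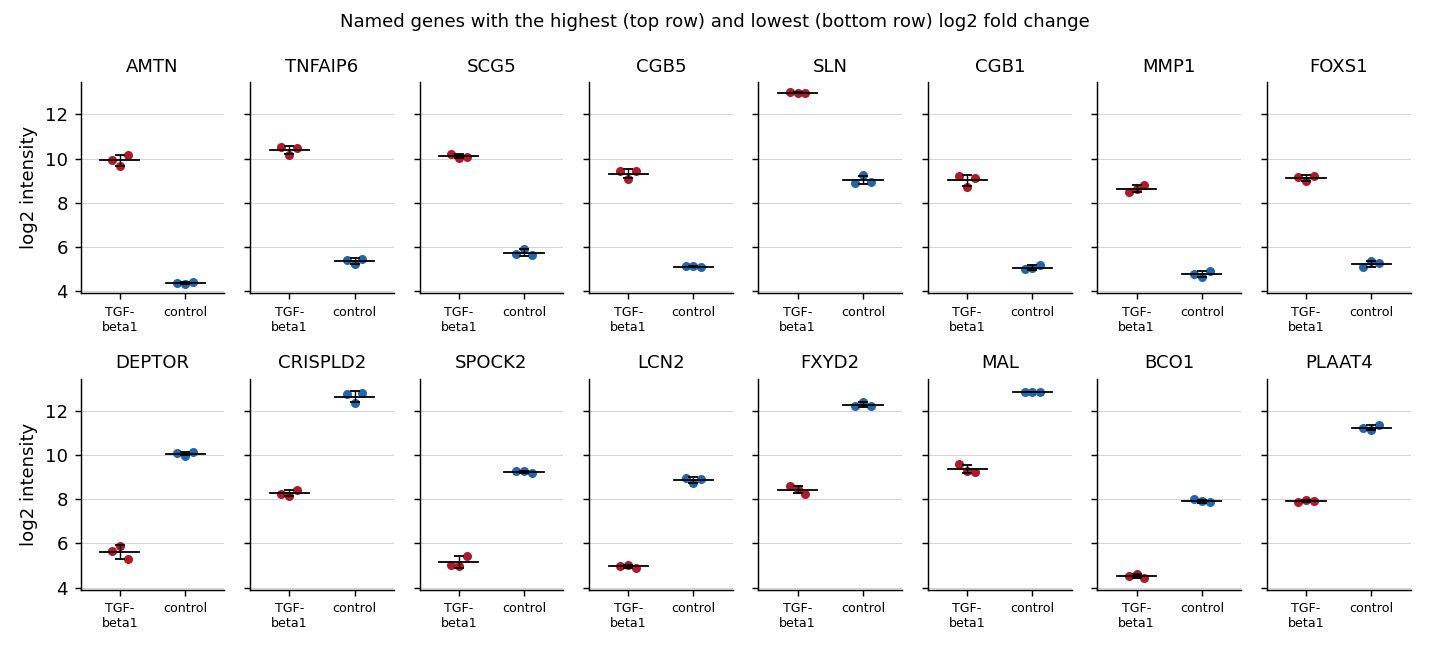
Log2 intensity on each array (points) with the mean (line) and SD (bars) of 3 TGF-beta1 and 3 control arrays, for the 8 genes with the highest and the 8 with the lowest log2 fold change among those described in the text. In each panel the 2 groups lie apart, and control values of AMTN and TGF-beta1 values of BCO1 sit near the bottom of the scale, where no array detected them.

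A change of detection gave another view of the extremes. With TGF-beta1, 116 genes were detected by at least 1 probe on all 3 arrays and by none on any control array, and 115 of them were called. In the reverse direction, 261 genes were detected on all 3 control arrays and on no TGF-beta1 array, and 226 were called. Both sets were chosen by a difference in detection, so their calls are no separate evidence of a change. The lowest level among detected probes was 5.309 and 5.269 on the first and the third control array. It was 5.446 or more on the second control array and on every TGF-beta1 array. The part of this difference in the counts of 116 and 261 was not tested. The bound on the fold reached 2 in 39 of the 116 and 42 of the 261 genes. A bound is the least change between the measured means and makes no allowance for the spread between arrays. A bound under 2 does not show a small change. SOX9 (at least 7.9-fold higher), LPAR5 (at least 6.94-fold higher) and ANGPTL4 (at least 6.94-fold higher) were among the 10 with the largest bound that appeared with TGF-beta1. MAP1LC3C (at least 5.49-fold lower) and RERG (at least 5.19-fold lower) were among the 10 that disappeared.

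Lists of genes that share a role were then read against the whole array. The lists, 94 in 6 classes, hold familiar members of each family and were chosen with earlier results of these data known. Receptors and secreted proteins were called more often than all genes (45.1%), and transcription factors less often. Without the numbered zinc finger genes, a split made after the data were seen, the share of transcription factors was near that of all genes. Of 299 secreted protein genes, 100 were higher and 103 lower (67.9% called). Of 188 receptor genes, 47 were higher and 60 lower (56.9%). Of 651 metabolism genes, 134 were higher and 177 lower (47.8%), and of 628 transcription factor genes 82 were higher and 165 lower (39.3%). Without the numbered zinc finger genes, 67 of 302 transcription factor genes were higher and 84 lower (50% called). These shares describe lists of different levels and sizes, and no test of the lists was made. Counts of single lists below stand beside 21.8% of all genes called higher and 23.2% called lower.

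**Figure D3:**
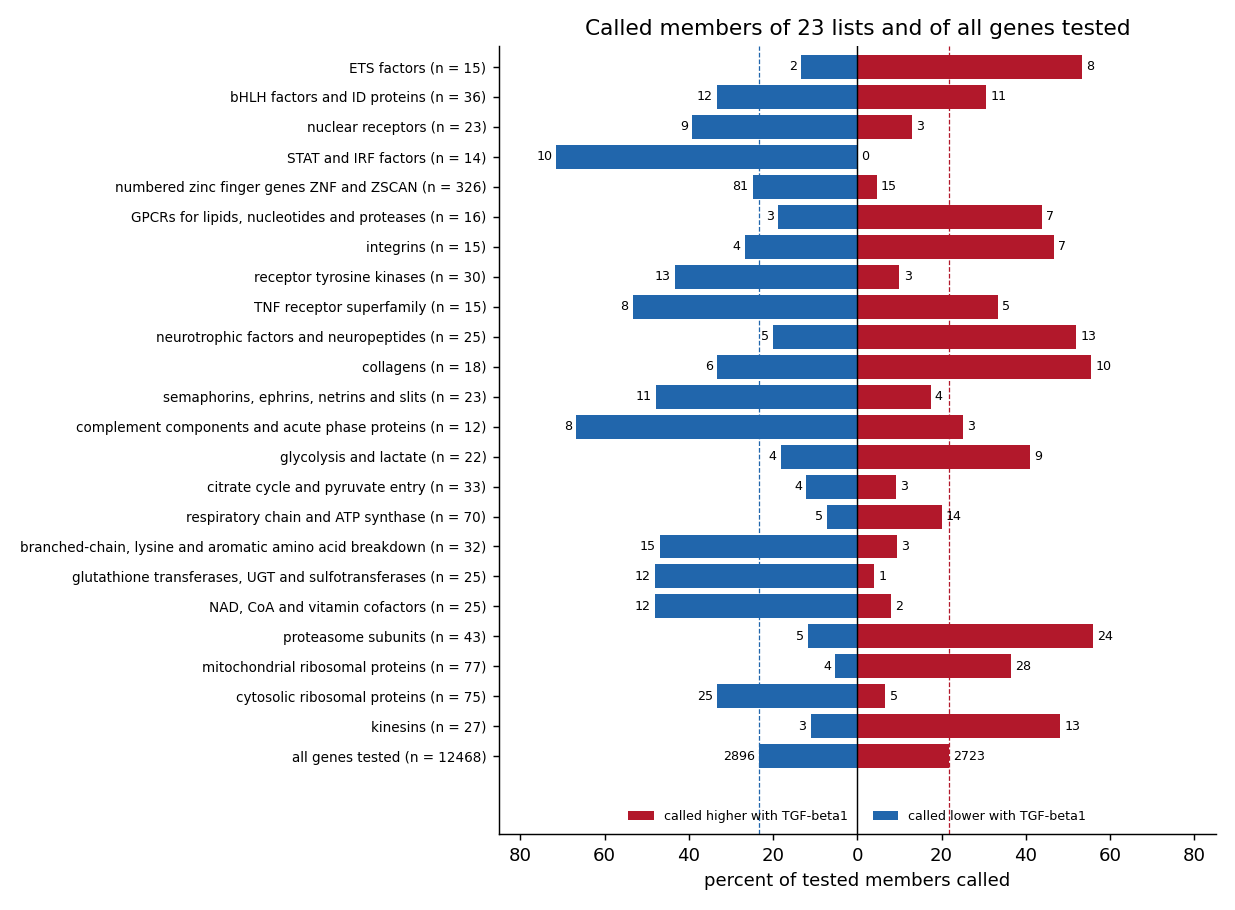
Percent of tested members called higher (red, to the right) or lower (blue, to the left) with TGF-beta1 in 23 of the lists described in the text and in all genes tested, with the number of called members at the end of each bar and n the number tested; dashed lines mark the shares of all genes. STAT and IRF factors lie to the left, with 10 of 14 lower and 0 higher, and proteasome subunits mostly to the right, with 24 of 43 higher.

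SMAD7 and SKIL, both inhibitors of TGF-beta signalling, rose, and the signal carrier SMAD3 fell. Of 11 SMAD and SKI genes, 2 were higher and 1 lower, or 3 lower without the third control array. SMAD7, which blocks the receptors, was at 8.41, 8.35 and 8.48 on the TGF-beta1 arrays, against 6.51, 6.62 and 6.71 on the control arrays, and rose by 1.80 (SE 0.16). SKIL, a corepressor that binds SMAD proteins, rose by 1.19 (SE 0.14). SMAD3 fell by 0.54 (SE 0.13), and SMAD4, the shared partner, differed by -0.25 (SE 0.10, adjusted p = 0.0537). Among 10 receptors and coreceptors of the family 3 were higher and 3 lower. The decoy receptor BAMBI rose by 1.33 (SE 0.13), whereas the type II receptor TGFBR2 fell by 0.55 (SE 0.09) and the activin receptor ACVR1B fell by 0.65 (SE 0.10).

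The Notch ligand JAG1, the receptor NOTCH2 and 3 known target genes of Notch rose. JAG1 was at 12.01, 12.01 and 12.06 on the TGF-beta1 arrays, against 8.21, 8.19 and 8.07 on the control arrays. It rose by 3.87 (SE 0.15, adjusted p = 8.07e-14), with the 2 groups far apart relative to their own spread. NOTCH2 rose by 0.97 (SE 0.13), and the repressors HES1, HEY1 and HEYL rose by 2.23 (SE 0.15), 1.77 (SE 0.13) and 1.00 (SE 0.16). JAG2, another ligand, fell by 0.49 (SE 0.12). Of the 6 Notch receptors and ligands tested, 3 were higher and 2 lower, of which 1 was lost when any array but the third TGF-beta1 array was left out. The ID proteins, which block basic helix-loop-helix factors by binding them, were higher for ID3 (1.85, SE 0.13) and ID1 (1.67, SE 0.12). Over the whole list of 36 basic helix-loop-helix and ID genes, 11 were higher and 12 lower. The member with the largest fall was EPAS1, the hypoxia-inducible factor 2 alpha, at 9.40, 9.53 and 9.39 on the TGF-beta1 arrays, against 11.97, 12.23 and 12.18 on the control arrays, and it fell by 2.68 (SE 0.10).

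Single forkhead, early growth response and AP-1 factors rose, in families whose calls went both ways. Of 21 forkhead factors 6 were higher and 6 lower, and of 19 KLF, SP and EGR factors 3 were higher and 3 lower. Of 38 basic leucine zipper factors, which include AP-1, 7 were higher and 15 lower. FOXS1, a forkhead factor, was at 9.18, 8.99 and 9.21 on the TGF-beta1 arrays, against 5.11, 5.37 and 5.28 on the control arrays, of which 1 detected it, and rose by 3.87 (SE 0.20). EGR2, an early growth response factor, was at 9.59, 9.24 and 9.69 on the TGF-beta1 arrays, against 5.95, 5.87 and 5.90 on the control arrays, and rose by 3.60 (SE 0.15). JUNB and FOSB, subunits of the AP-1 factor, rose by 2.21 (SE 0.14) and 1.60 (SE 0.12). Of 15 ETS factors 8 were higher, led by ETV4 (1.58, SE 0.17) and ELK3 (1.52, SE 0.15), and 2 lower, led by ELF3, which was at 7.70, 7.57 and 7.41 on the TGF-beta1 arrays, against 10.22, 10.21 and 10.26 on the control arrays, and fell by 2.67 (SE 0.10). SNAI1, a repressor of CDH1, was at 5.27, 5.48 and 5.63 on the TGF-beta1 arrays, against 4.47, 4.46 and 4.68 on the control arrays. It was detected on 2 of 3 TGF-beta1 arrays and on no control array, and was at least 1.07-fold higher (adjusted p = 4.06e-06).

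Several nuclear receptors, factors of epithelium and kidney, and most STAT and IRF factors fell. Of 23 nuclear receptors 3 were higher and 9 lower. NR1H4, the bile acid receptor, was at 5.24, 5.49 and 5.14 on the TGF-beta1 arrays, against 7.64, 7.51 and 7.52 on the control arrays, and fell by 2.27 (SE 0.23). NR2F2 fell by 1.93 (SE 0.11) and ESRRG fell by 1.89 (SE 0.13), both orphan receptors. FOXA1, a forkhead factor of epithelia, fell by 1.86 (SE 0.12), and PAX8, a factor of kidney development, fell by 1.37 (SE 0.13). CEBPD, a factor of the acute phase response, fell by 2.28 (SE 0.10) and HLF, a factor of circadian output in liver, fell by 2.23 (SE 0.21). Of 14 STAT and IRF factors, 10 were lower and 0 higher, with STAT2 at 9.78, 9.84 and 9.76 on the TGF-beta1 arrays, against 11.17, 11.22 and 11.12 on the control arrays. STAT2 fell by 1.38 (SE 0.09), STAT4 fell by 1.46 (SE 0.08) and IRF5 was at least 1.63-fold lower. Of 8 NF-kappaB and NFAT genes 1, NFAT5, was lower (-0.49, SE 0.14) and none higher, and RELA differed by 0.06 (SE 0.13, adjusted p = 0.717).

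**Figure D4:**
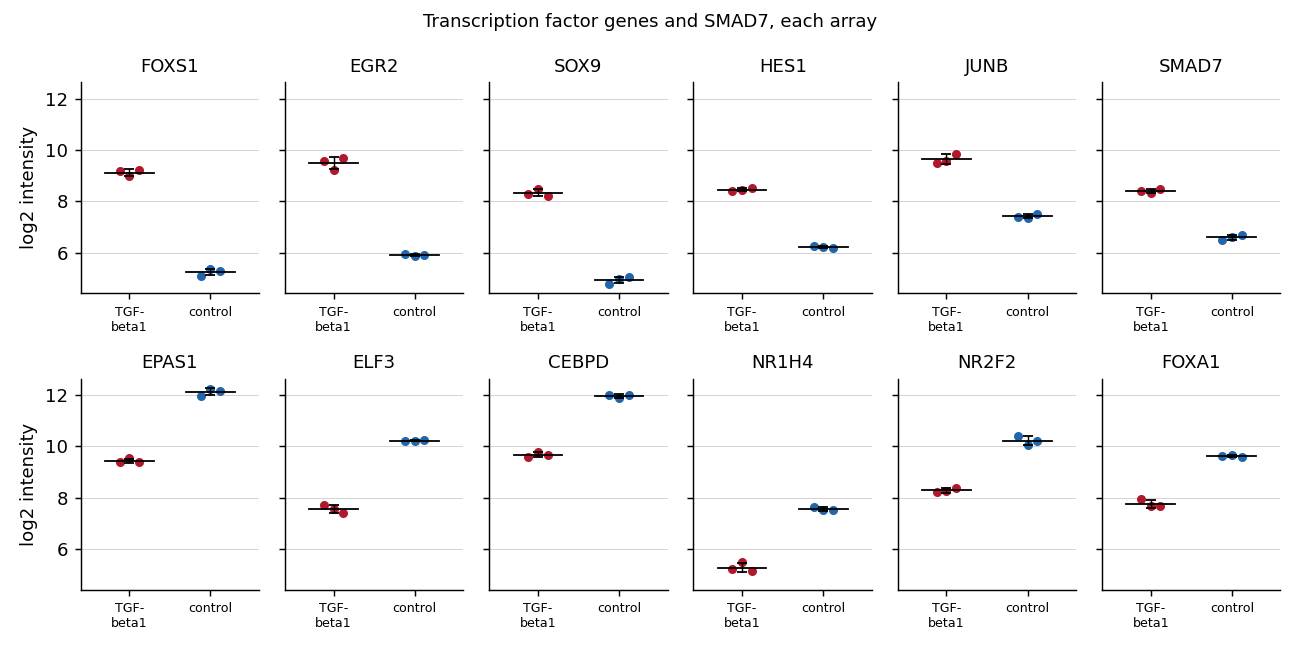
Log2 intensity on each array (points) with the mean (line) and SD (bars) of 3 TGF-beta1 and 3 control arrays, for 11 transcription factor genes and SMAD7. FOXS1, EGR2, SOX9, HES1, JUNB and SMAD7 (top row) lie higher on every TGF-beta1 array, and EPAS1, ELF3, CEBPD, NR1H4, NR2F2 and FOXA1 (bottom row) lie lower on every one.

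The large family of numbered zinc finger genes, most of which encode repressors with a KRAB domain, was called less often than all genes, and the calls were mostly lower. Of 326 tested, 81 were lower and 15 higher, with a median change of -0.14, against -0.01 over all genes. Their share of calls was 29.4%. With each array scaled to its median instead, 80 were lower and 6 higher, and without the third TGF-beta1 or the third control array 9 and 8 were higher. With a minimum fold of 1.2 in the test, 21 were lower and 3 higher. At least 2-fold changes were seen in 1 higher and 3 lower members. ZNF365 was at 8.63, 8.63 and 8.69 on the TGF-beta1 arrays, against 6.76, 6.81 and 6.47 on the control arrays, and rose by 1.97 (SE 0.11), and ZNF114 (-1.78, SE 0.12), ZSCAN31 (-1.73, SE 0.11) and ZNF319 (-1.61, SE 0.16) were lower.

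Among receptors, those for bioactive lipids and nucleotides were called higher more often than lower, and receptor tyrosine kinases the other way. Of 16 G protein-coupled receptors for lipids, nucleotides and proteases, 7 were higher and 3 lower. LPAR5, a receptor for lysophosphatidic acid, was at 8.35, 8.04 and 8.07 on the TGF-beta1 arrays, against 4.77, 4.99 and 4.79 on the control arrays, where no array detected it. S1PR5, a receptor for sphingosine 1-phosphate, rose by 1.56 (SE 0.12), and P2RY2, a receptor for ATP and UTP, rose by 1.13 (SE 0.11). Of 30 receptor tyrosine kinases, 13 were lower and 3 higher. FGFR3 fell by 1.07 (SE 0.18), and the next members, chosen after their values were seen, were MERTK (-0.92, SE 0.13), AXL (-0.90, SE 0.15) and ERBB2 (-0.82, SE 0.14), while MET differed by 0.11 (SE 0.12, adjusted p = 0.49). The members that rose were MUSK (0.73, SE 0.11) and the neighbouring genes CSF1R and PDGFRB, of which PDGFRB was at least 1.49-fold higher. CSF1R, the receptor for macrophage colony-stimulating factor, was at 7.62, 7.03 and 7.21 on the TGF-beta1 arrays, against 4.45, 4.56 and 4.45 on the control arrays, and was at least 3.8-fold higher (adjusted p = 6.37e-13). It is a marker of macrophages, and the leukocyte markers PTPRC, CD14 and LYZ were detected on no array.

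Cytokine and integrin receptors moved both ways. IL7R, the receptor for interleukin 7, was at least 5.53-fold higher, and IL6R at least 1.16-fold lower. Of 15 TNF receptor superfamily genes, 5 were higher, led by TNFRSF19 (1.33, SE 0.09), and 8 lower, led by TNFRSF14 (-1.55, SE 0.13). Of 15 integrin subunits 7 were higher and 4 lower. ITGA2 of the collagen receptor rose by 1.76 (SE 0.16), ITGB8 was at least 3.46-fold lower and ITGB4 of the hemidesmosome fell by 1.37 (SE 0.22). NRP2, a coreceptor for semaphorins and for vascular growth factors, was at least 2.14-fold higher. All 4 called pattern recognition receptors, of 7 tested, were lower. They were IFIH1 (-0.73, SE 0.10) and RIGI (-0.87, SE 0.12), sensors of viral RNA, with TLR3 (at least 1.39-fold lower) and DHX58 (at least 1.73-fold lower). Without the third TGF-beta1 array 1 member of the list was called higher.

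Secreted signalling ligands changed in both directions. Of 12 ligands of the TGF-beta superfamily, 5 were higher and 5 lower. LEFTY2, an antagonist of Nodal, was at least 3.73-fold higher. BMP4 was at 6.05, 6.24 and 5.82 on the TGF-beta1 arrays, against 8.34, 8.31 and 8.24 on the control arrays, and fell by 2.26 (SE 0.11). BMP2 rose by 1.31 (SE 0.12), so that these 2 bone morphogenetic proteins moved apart. Of 11 antagonists and latency proteins of the family 6 were higher and 2 lower. The BMP antagonist GREM1 rose by 0.80 (SE 0.15). WNT5B and WNT5A, ligands of the branch of WNT signalling that does not act through beta-catenin, rose by 2.56 (SE 0.12) and 2.09 (SE 0.21), whereas WNT10A was at least 1.76-fold lower and WNT7B fell by 1.41 (SE 0.30). VEGFC and PDGFA, growth factors of vessels and mesenchyme, rose by 1.83 (SE 0.15) and 1.72 (SE 0.19).

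Among cytokine genes, IL11 was at 9.38, 9.12 and 9.68 on the TGF-beta1 arrays, against 6.22, 6.08 and 6.34 on the control arrays, and rose by 3.18 (SE 0.22, adjusted p = 2.88e-10). IL23A fell by 1.72 (SE 0.26) and LTB, a TNF family ligand, fell by 1.78 (SE 0.25). In the fit over 18 arrays no chemokine gene was higher among 9 tested, of which CX3CL1 (-1.34, SE 0.23), CXCL16 (-1.29, SE 0.14) and CCL28 (-0.99, SE 0.13) were lower and CXCL8 differed by 0.32 (SE 0.13, adjusted p = 0.0515). A fit on the 6 arrays alone called 3 chemokine genes higher.

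Neurotrophic factor, neuropeptide and hormone genes were called higher more often than lower. Of 25 tested, 13 were higher and 5 lower. SCG5, a chaperone of a prohormone convertase, was at 10.23, 10.03 and 10.09 on the TGF-beta1 arrays, against 5.68, 5.92 and 5.63 on the control arrays, and rose by 4.38 (SE 0.25). Also higher were GAL, which encodes galanin (2.84, SE 0.15), and PTHLH, which encodes parathyroid hormone-related protein (2.14, SE 0.13), both named after their values were seen. CGB5 was at 9.43, 9.08 and 9.44 on the TGF-beta1 arrays, against 5.14, 5.14 and 5.09 on the control arrays, and was at least 15.5-fold higher. It is one of several near-identical beta subunit genes, CGB1, CGB7, CGB8 and LHB among them, whose probes may share signal, so the level of each is uncertain. These 5 genes were all called higher, and with them counted as 1 the list has 9 of 21 higher and 5 lower. ADM, a vasodilator peptide, was at 7.84, 7.77 and 7.52 on the TGF-beta1 arrays, against 9.74, 9.69 and 9.62 on the control arrays, and fell by 1.97 (SE 0.13), and STC2, stanniocalcin 2, fell by 1.82 (SE 0.12).

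Axon guidance ligands and complement genes were called lower more often than higher. Of 23 semaphorin, ephrin, netrin and slit genes, 11 were lower, led by SEMA5A (-2.12, SE 0.27) and NTN4 (-1.69, SE 0.19), and 4 higher, led by SEMA3C (2.09, SE 0.33). Of 12 complement and acute phase genes, 8 were lower and 3 higher, with a list median of -1.54. CFB, a protease of the alternative pathway, was at 6.25, 6.43 and 6.20 on the TGF-beta1 arrays, against 8.93, 8.94 and 9.09 on the control arrays, and fell by 2.70 (SE 0.28). The exceptions were FGB, the fibrinogen beta chain (1.70, SE 0.43), and 2 genes with a C1q-like domain that are no part of the complement cascade, C1QL1 (1.00, SE 0.16) and C1QTNF6 (0.41, SE 0.14). The call of C1QTNF6 was lost without the first TGF-beta1 array (adjusted p = 0.147) or without the first or the third control array (adjusted p = 0.0704 and 0.109), and after scaling to the median.

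Collagen genes and genes of matrix remodelling changed in both directions. Of 18 collagen genes 10 were higher and 6 lower. COL1A1 was at 9.35, 9.15 and 9.43 on the TGF-beta1 arrays, against 6.97, 7.06 and 6.94 on the control arrays, and rose by 2.32 (SE 0.11), and COL5A1 rose by 2.06 (SE 0.15). COL14A1, a collagen on the surface of fibrils, was at least 2.44-fold lower, and COL12A1, its relative, fell by 1.08 (SE 0.12). Among crosslinking and processing enzymes, LOX rose by 2.94 (SE 0.22) and its relative LOXL4 fell by 2.05 (SE 0.21). Of 16 metalloproteinase genes of the MMP and ADAMTS families 6 were higher and 5 lower, with a median change of -0.26. After scaling to the median 5 were higher and 6 lower, and with probes detected on all 6 arrays 2 and 5. Among those that rose, MMP1, an interstitial collagenase, was at least 9.76-fold higher and MMP9, a gelatinase, rose by 3.07 (SE 0.19). TFPI2, an inhibitor of serine proteases, rose by 2.57 (SE 0.24), and IGFBP5, which binds insulin-like growth factors, fell by 2.39 (SE 0.46).

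In metabolism, the citrate cycle, the respiratory chain and cholesterol synthesis had smaller shares of called genes than all genes tested. Of 33 citrate cycle genes 26 were not called (21.2% called), and of 70 respiratory chain genes 14 were higher and 5 lower (27.1%). Scaled to the median, 7 of them were higher and 3 lower, and without the third control array 9 were higher and 3 lower. Of 21 cholesterol synthesis genes 4 were lower and 0 higher, or 1 higher without the second control array. PDK4, a kinase that closes the entry of pyruvate to the cycle, was at 5.30, 5.67 and 5.66 on the TGF-beta1 arrays, against 7.39, 7.45 and 7.54 on the control arrays, and fell by 1.92 (SE 0.13). SDHA, a subunit of succinate dehydrogenase, rose by 0.83 (SE 0.09). Of 22 glycolysis genes 9 were higher, led by HK2 (0.75, SE 0.13), and 4 lower, led by LDHB (-0.55, SE 0.07) and PFKL (-0.55, SE 0.13). With each array scaled to its median, 4 were higher and 5 lower, without the first control array 5 were higher, and with a minimum fold of 1.2 in the test 1 was higher and 1 lower.

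Genes of cofactor synthesis, amino acid breakdown and conjugation were called lower more often than higher. Of 25 genes of NAD, coenzyme A and vitamin cofactors, 12 were lower and 2 higher, or 1 higher without the first TGF-beta1 or the third control array and 0 after scaling to the median. NMRK2, which starts NAD synthesis from nicotinamide riboside, was at least 3.92-fold lower (adjusted p = 5.82e-08). Of 32 genes for the breakdown of branched-chain amino acids, lysine and aromatic amino acids, 15 were lower, led by KMO of the kynurenine pathway (at least 2.24-fold lower), and 3 higher. Of 25 glutathione transferases, glucuronosyl- and sulfotransferases 12 were lower, led by SULT1C2 (-1.42, SE 0.15), and 1, GSTO1, was higher (0.51, SE 0.10). PRODH, which starts proline breakdown, was at 6.29, 6.73 and 6.38 on the TGF-beta1 arrays, against 9.00, 9.02 and 9.28 on the control arrays, and fell by 2.63 (SE 0.14). GPX3, the secreted glutathione peroxidase of the proximal tubule, was at 9.08, 8.98 and 8.79 on the TGF-beta1 arrays, against 11.35, 11.20 and 11.34 on the control arrays, and fell by 2.34 (SE 0.15).

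Genes of sphingosine 1-phosphate, adenosine and prostaglandin handling are set side by side as groups chosen after their values were seen. SPHK1, which makes sphingosine 1-phosphate, was at 9.10, 9.30 and 9.19 on the TGF-beta1 arrays, against 7.23, 7.13 and 7.46 on the control arrays, and rose by 1.92 (SE 0.11). SGPP2, a phosphatase that removes it, was at 6.43, 6.58 and 6.21 on the TGF-beta1 arrays, against 8.65, 8.68 and 8.59 on the control arrays, and fell by 2.23 (SE 0.23). NT5E, which makes adenosine outside the cell, was at 8.95, 8.91 and 9.02 on the TGF-beta1 arrays, against 6.02, 6.17 and 6.01 on the control arrays, and rose by 2.89 (SE 0.20). SLC29A1, the nucleoside carrier, rose by 2.48 (SE 0.12), and ADA, which deaminates adenosine, rose by 0.57 (SE 0.08). Of its receptors ADORA2B rose by 0.46 (SE 0.12) and ADORA1 fell by 0.95 (SE 0.11), while the adenosine kinase ADK differed by 0.25 (SE 0.11, adjusted p = 0.0684). Of 16 genes of eicosanoid and prostaglandin metabolism 8 were lower and 5 higher. The prostaglandin synthases PTGDS and PTGES were lower, by a change of -2.08 (SE 0.12) and at least 2.37-fold lower, while PTGES3, another, was higher (0.43, SE 0.08). ALOX5AP, which presents arachidonic acid to 5-lipoxygenase, was at least 2.32-fold higher, and ALOX5 itself fell by 1.28 (SE 0.14).

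Ion channel genes were called lower more often than higher. Of 60 ion channel genes 28 were lower and 13 higher (68.3% called). ANO2, a calcium-activated chloride channel, was at least 3.1-fold lower, and KCNJ15, a potassium channel, rose by 1.79 (SE 0.17). Among 162 solute carriers 46 were lower and 32 higher, 48.1% called against 45.1% of all genes, with a median change of 0.02. Of the sugar carriers SLC2A12 and SLC2A5 were at least 2.47-fold higher and at least 1.62-fold higher, and SLC2A2 was at least 2.7-fold lower. ABCB1, a drug exporter, was at 8.12, 8.14 and 8.01 on the TGF-beta1 arrays, against 10.58, 10.39 and 10.83 on the control arrays, and fell by 2.51 (SE 0.13). Of 16 phosphodiesterase and adenylyl cyclase genes 5 were lower and 0 higher, 31.2% called against 45.1% of all genes. PDE5A, which breaks down cyclic GMP, had the largest fall (-2.52, SE 0.23). With the mean of all kept probes 1 member of this list was higher. RGS proteins, which switch off G proteins, were higher in 6 of 10 and lower in 1, and 3 were higher after scaling to the median.

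Many proteasome genes rose, by small folds. Of 43 proteasome genes 24 were higher and 5 lower. PSMD2, a subunit of the regulatory particle, was at 11.57, 11.44 and 11.29 on the TGF-beta1 arrays, against 10.41, 10.57 and 10.29 on the control arrays, and rose by 1.01 (SE 0.11). The members that fell, named after their values were seen, were the immunoproteasome subunits PSMB8 (-0.62, SE 0.09), PSMB9 (-0.32, SE 0.12) and PSMB10 (-0.29, SE 0.10), the interferon-induced activator PSME1 (-0.38, SE 0.07) and the inhibitor PSMF1 (-0.28, SE 0.08). Of these, PSMB9, PSMB10 and PSMF1 rest on small changes. Without the second control array their adjusted p was 0.101, 0.0828 and 0.0622, and without the third TGF-beta1 array it was 0.125 for PSMB9 and 0.056 for PSMB10. Without the second TGF-beta1 array it was 0.0778 for PSMB10, and without the first TGF-beta1 or the third control array 0.071 and 0.075 for PSMB9. The constitutive counterparts of the immunoproteasome subunits, PSMB5, PSMB6 and PSMB7, differed by 0.15 (SE 0.08), 0.41 (SE 0.10) and 0.34 (SE 0.08), of which PSMB5 was not called. After scaling to the median PSMB7 and PSMF1 were not called either (adjusted p = 0.0721 and 0.0503). Mitochondrial ribosomal proteins were higher in 28 of 77 and lower in 4, and cytosolic ones higher in 5 of 75 and lower in 25. With each array scaled to its median, these counts were 11 higher and 3 lower for the mitochondrial ribosome and 3 higher and 41 lower for the cytosolic one. With a minimum fold of 1.2 in the test, 6 proteasome genes were higher and 1 lower, 1 mitochondrial ribosomal gene was higher and 0 lower, and 3 cytosolic ones were higher and 6 lower. Without the second TGF-beta1 array 16 cytosolic genes were lower, and without the first 2 mitochondrial genes were.

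Kinesin genes were called higher more often than lower. Of 27 kinesins 13 were higher, led by the mitotic motors KIF2C (1.49, SE 0.13) and KIF4A (1.41, SE 0.09), and 3 lower, led by KIF12 (-1.52, SE 0.16). FOXM1, a factor of mitotic genes, rose by 1.13 (SE 0.12), and RRM2, which makes deoxynucleotides, rose by 1.16 (SE 0.11), whereas RRM2B, its p53-induced relative, fell by 1.25 (SE 0.17). Replication licensing genes were mixed, with 9 of 38 higher, led by MCM10 (0.87, SE 0.10), and 5 lower, led by MCM2 (-0.94, SE 0.17). Their share of calls was 36.8%, against 45.1% of all genes. Of the licensing genes 5 were higher without the first TGF-beta1 array or after scaling to the median. Tubulin and actin genes were higher in 15 of 25 and lower in 3, led by TUBA4A (1.81, SE 0.14). ACTA2, the smooth muscle actin used as a marker of myofibroblasts, fell by 0.36 (SE 0.11, adjusted p = 0.0109), and was not called without the first control array (adjusted p = 0.071).

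Genes changed at least 2-fold were in several places next to each other on the chromosome. The RefSeq order gave 10415 pairs of tested genes that follow each other. Both genes were at least 2-fold higher in 34 of these pairs and at least 2-fold lower in 33, and they moved apart in 22. Over all genes tested, 2.94% were called and at least 2-fold higher and 3.83% lower. A pair skips genes that were not tested and can be far apart, as with 1940976 bases between KCNJ2 and SOX9. Of the 34 higher pairs 4 lie within the run of LHB and the CGB genes, whose probes may share signal, and 30 remain without them. On chromosome 4, ODAM, another protein of the enamel organ, and CSN3, a casein, precede AMTN and were at least 4.04-fold higher and at least 2.72-fold higher. FOXS1 on chromosome 20 lies beside MYLK2, a myosin kinase gene, which was at least 3.19-fold higher. MMP10, MMP1 and MMP13 on chromosome 11 were at least 4.89-fold higher, at least 9.76-fold higher and at least 1.47-fold higher. Runs of lower genes included CDH3 and CDH1 on chromosome 16, of which CDH3 was at least 1.78-fold lower. On chromosome 12 the complement genes C1S, C1R and C1RL lie in a row and had changes of -1.54 (SE 0.21), -1.72 (SE 0.29) and -1.67 (SE 0.09). SOX9 and its tested neighbour KCNJ2 on chromosome 17 moved apart, as KCNJ2 was at least 2.46-fold lower. These runs were picked after the values were seen, and no test of them was made.

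The same contrast was measured on 6 arrays that the comparison above does not use, TGF-beta1 with C-peptide against C-peptide alone, both for 48 h. Both contrasts draw on the same estimate of the spread. There 5357 genes were called (43.0%), 2651 higher (21.3%) and 2706 lower (21.7%). Of the 5619 genes called without C-peptide, 4418 were also called in the same direction with it (78.6%), which was 82.5% of the calls with C-peptide. Of the 844 genes called with a change of at least 2-fold, 843 were called in the same direction, and DNER, a ligand of Notch receptors, was not (-1.10 without and -0.74 with C-peptide). DNER was detected on no TGF-beta1 array, so its fall has a bound of at least 1.11-fold lower only, and it was not called without the first control array (adjusted p = 0.0514). JAG1 changed by 3.87 without and 3.55 with C-peptide, DEPTOR by -4.45 without and -4.46 with it, and EPAS1 by -2.68 without and -2.41 with it. A single gene, ITPKC, a kinase of inositol trisphosphate, was called in opposite directions, at 0.38 without and -0.31 with C-peptide, and the first of these calls was lost without the third TGF-beta1 array (adjusted p = 0.069). The difference between the contrasts, tested by the interaction term of the limma fit, was called for 0 genes (lowest adjusted p = 0.999), with 386 genes at an unadjusted p under 0.05.

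**Figure D5:**
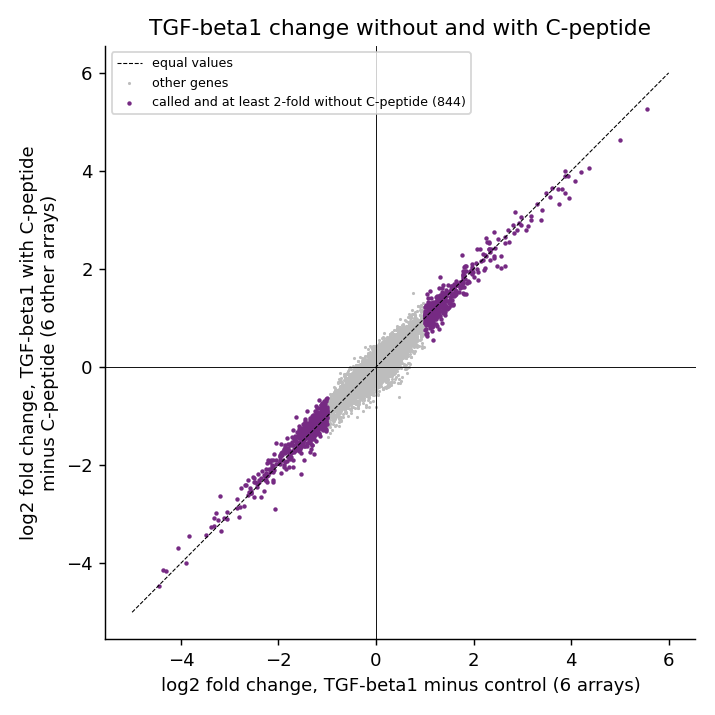
Log2 fold change of each gene for TGF-beta1 with C-peptide minus C-peptide (vertical axis, 6 arrays) against that for TGF-beta1 minus control (horizontal axis, 6 other arrays), with the 844 genes called and changed at least 2-fold without C-peptide in purple and equal values on the dashed line. All 844 have the same sign in both contrasts.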

How the data were processed

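RNA from 18 flasks of HK-2 cells was hybridised to Illumina HumanWG-6 V3 bead arrays, per the labels. The authors deposited, per the file headers, 1 table of the whole series with probe intensity exported from GenomeStudio without normalization, a detection value per array (a fraction, 1 minus the detection p) and a score that gives the mean number of beads behind a probe, and a second table of normalized intensity for each array on a linear scale. The submitters' processing notes name BeadStudio and GenomeStudio 1.1.1. How the authors normalized the second table is not given in the sources used here, and it served as an alternative with values under 16 set to 16.

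From the unnormalized intensity, the background was corrected from the detection p-values (neqc in limma 3.58.1, R 4.3.3, offset 16), followed by quantile normalization and log2. Probes with a detection p under 0.01 on at least 3 of 18 arrays were kept. The probe with the highest mean level stood for its gene, 12468 genes in all. Of 3092 genes with more than 1 kept probe, 31 had probes called in both directions. Gene names are those of the array, updated through RefSeq where a current or older symbol matched. Of 48803 probes 21597 had no match and kept the name given by the array. A linear model with 6 group means (12 residual degrees of freedom) was fitted in limma with moderated variances that follow the level, and p-values were adjusted by Benjamini-Hochberg over all genes. The number of arrays limits the precision.

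Where a gene's probe was detected on no array of a group, only a bound on the fold is given. It is the mean of the other group over, per array, the higher of the gene's own level and the lowest level among detected probes, as means of log2 values.

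Deviations from the group mean had correlations of 0.033, -0.216 and 0.131 between TGF-beta1 and control arrays of the same replicate number. Between arrays of different numbers they were -0.378 to 0.346. With 3 arrays per group these values cannot decide whether flasks were paired, and the reported fit uses no pairing. The lists of genes and the comparison itself were chosen with earlier results of these data known. Genes were named by rule. These were the 15 highest and 15 lowest called genes without overlap, the 3 called members of each list with the largest change (for lists with fewer calls, those of at least 2-fold), members of at least 2-fold called against most of their list, and the 10 genes with the largest bound in each direction. Some genes that the rule gives are not reported here. All other genes named, such as chromosome neighbours and immunoproteasome subunits, were chosen after their values were seen. Counts without the numbered zinc finger genes, with the CGB and LHB genes as 1, and of motifs were added after the data were seen. Promoter sequences are RefSeq's (GRCh38.p14). Alternatives were a replicate block, a fit on 6 arrays, other scaling, background, probe and filter choices, array weights, a minimum fold of 1.2 (limma's treat), and leaving out each array.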

Additional observations from a re-analysis of the deposited data

How the results depend on the processing

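No called gene named here changed sign under any alternative that gave it a value. Of these 187 genes 124 had a value with probes detected on all 6 arrays, and 186 with probes detected on 3 or more. Of the 844 genes called with at least 2-fold changes, 842 to 844 were called again under each alternative except 2 that tested fewer probes. These gave 838 with probes detected on 3 or more of the 6 arrays and 609 with probes detected on all 6. With a minimum fold of 1.2 (treat), 1044 genes were higher and 1281 lower. The counts by class were then 44 and 73 for transcription factors, 31 and 32 for receptors and 41 and 91 for metabolism, and 1874 genes were called in both contrasts. That test ended the calls of 17 of the 187 called genes named here (ACTA2, ADORA2B, C1QTNF6, DNER, GSTO1, ITPKC, JAG2, NFAT5, PFKL, PSMB6, PSMB7, PSMB9, PSMB10, PSME1, PSMF1, PTGES3 and SMAD3). The direction with more calls turned in some lists whose counts are given here. Glycolysis turned after scaling to the median (4 higher and 5 lower), and integrins with the minimum fold (3 and 4). SMAD and SKI genes turned with array weights or without the third control array (2 and 3). Basic helix-loop-helix genes, at 11 higher and 12 lower, turned under 8 alternatives, and metalloproteinases, at 6 higher and 5 lower, under 5. Cytokine receptors and WNT ligands, described without counts, turned under 1 alternative each. With a background offset of 50, which shrinks the changes of dim genes, 227 genes were at least 2-fold higher and 283 lower. With the replicate number as a block, there were 2701 higher and 2865 lower calls, 367 and 477 of at least 2-fold size, and 97.4% of the calls were kept; the block lost no call of a gene named here. Leaving out 1 array at a time gave 2302 to 2458 higher and 2435 to 2581 lower genes, 354 to 380 at least 2-fold higher and 475 to 507 at least 2-fold lower, and 3937 to 4167 genes called in both contrasts. For the classes it gave 70 to 78 higher and 135 to 147 lower transcription factors, 41 to 44 and 51 to 57 receptors, 88 to 94 and 89 to 97 secreted proteins, and 110 to 128 and 153 to 166 metabolism genes. With each array scaled to its median, the median change over all genes was -0.06 in place of -0.01, and 1883 genes were higher and 2921 lower, 39.2% of calls higher against 48.5%. Fitting the 6 arrays alone raised the count of lower citrate cycle genes to 7 and that of higher receptor tyrosine kinases to 6; the cause was not tested. DNER was not called from the deposited normalized table (adjusted p = 0.0568). Levels near background limit the dim genes, for which only bounds are given.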
